A study of Mus musculus with 14 samples.

Results

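The smooth muscle contractile genes are Acta2, Myh11, Tagln, Cnn1, Des, Actg2, Lmod1, Mylk, Smtn and Cald1, which encode the filaments that smooth muscle cells contract with and the proteins that control them. They were chosen by symbol: 20 of the 45101 probe sets on the array are annotated to 1 of these 10 symbols and to no other gene. For each gene the probe set with the highest mean over 14 arrays stood for it, which gave 10 of the 18194 genes with such a probe set. Each of the 10 lay above the array median in all 14 arrays, so the filter on low values removed none of them. Lmod1 lay closest to that median.

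In smooth muscle, calcium binds calmodulin, and calmodulin switches on myosin light chain kinase, the product of Mylk. The kinase phosphorylates the light chains of smooth muscle myosin, which then pulls on actin filaments, while calponin and caldesmon sit on those filaments and damp the interaction. Many of these genes carry a CArG box, the binding element of serum response factor (SRF), which works together with myocardin. In the lung the cells that express them surround airways and arteries. Mylk is also expressed outside muscle, including in endothelium.

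Whole mouse lungs were measured on 14 Affymetrix arrays, each labelled from 6 µg of total RNA, in a series on lung injury by mechanical ventilation and on pre-B-cell colony-enhancing factor (PBEF, the product of Nampt). The 3 arrays titled VILI PBEF+/- came from lungs ventilated for 4 hours at a labelled tidal volume of 40 ml/kg, in mice aged 8 to 12 weeks. The 3 arrays titled PBEF+/- came from lungs labelled as not ventilated, in mice aged 18 to 22 weeks. The 4 arrays titled VALI had the same 4 hours at 40 ml/kg, and the 4 Control arrays had PBS, both in mice aged 18 to 22 weeks. The series text gives 30 ml/kg, and recombinant human PBEF instilled into the trachea. The labels do not say whether PBEF+/- names a genotype or the protein given, name no strain or sex, and describe the source of all 14 arrays as a control animal, so the groups here rest on the titles. VILI PBEF+/- differed from every other group in age, and age cannot be told apart from treatment in its comparisons. Whether each array is a separate mouse is not stated, so the tests cover only the variation among these arrays, which may be partly technical.

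Several arrays stood apart. Il6, an inflammatory cytokine, was low in VALI replicate 4 (2.78 on the log2 scale, against a median of 9.72 in VALI) and high in PBEF+/- replicate 3 (10.87, against a median of 2.56 in PBEF+/-). Results are therefore given with all 14 arrays and without these 2, and p-values without them are conditional on a choice made from the values. The mean log2 value of the 3 control probe sets for 18S ribosomal RNA was 5.49 in PBEF+/- replicate 2 and 5.18 in VALI replicate 3, and it lay between 2.93 and 3.73 in the other 12 arrays. The difference between 3′ and 5′ control probe sets for actin, a measure of RNA integrity, lay between 0.50 and 0.77 in all 14. For Gapdh that difference was lowest in PBEF+/- replicate 2 (0.30), highest in PBEF+/- replicate 1 (0.80) and Control replicate 1 (0.79), and between 0.40 and 0.54 in the other arrays. Xist, transcribed from the inactive X chromosome of females, lay between 13.33 and 13.88 in 10 arrays, all 3 VILI PBEF+/- arrays among them. It lay between 2.55 and 2.64 in PBEF+/- replicate 2, VALI replicate 4 and Control replicates 1 and 4, where the Y-linked Eif2s3y was high. Control, VALI and PBEF+/- thus each held arrays of both patterns, and so of more than 1 animal. With this pattern as a covariate no contractile gene was called, and 0 of all 11360 genes were. The mean log2 value of 7 skeletal muscle markers was 12.06 in VALI replicate 1 and 12.77 in VALI replicate 4, 7.59 in VILI PBEF+/- replicate 2 and at most 4.68 in the other arrays. Among these markers, Acta1 was at least 8.63 in every VALI and VILI PBEF+/- array and at most 4.69 in Control. The mean of 6 heart muscle markers was high in every array (11.54 to 12.72). Markers of lung epithelium averaged at least 13.83 in each array, and Sftpc and Scgb1a1 were among the measured markers, both characteristic of lung.

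With all 14 arrays, none of the 10 contractile genes passed an adjusted p of 0.05 in limma in any of the 4 comparisons between groups, nor in their interaction. The same held for the whole array, where 0% of 11360 genes passed in each of these 5 tests. At an unadjusted p under 0.05, 1 of the 10 passed in VALI against Control, 2 in PBEF+/- against Control, 2 in VILI PBEF+/- against PBEF+/-, 0 in VILI PBEF+/- against VALI and 1 in the interaction. The corresponding shares of all genes were 18.3%, 8.26%, 20.7%, 10.5% and 5.58%. Mylk was the only member whose values did not overlap between VALI and Control. Of the 10 genes, 6 had their lowest value in PBEF+/- replicate 2. In these bulk samples, fewer smooth muscle cells and less of a transcript per cell cannot be told apart.

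**Figure D1:**
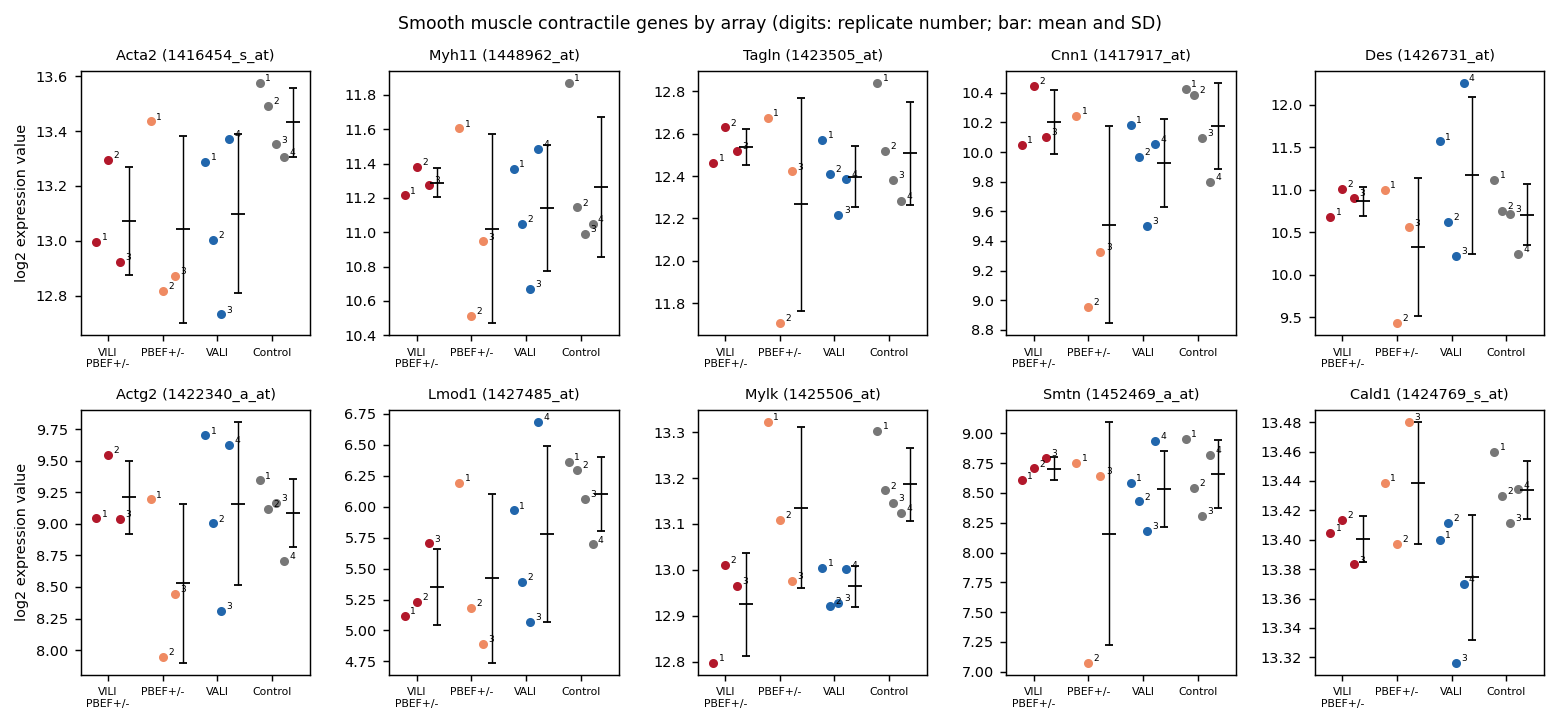
log2 expression value (vertical axis, a separate range for each gene) of the 10 contractile genes in the 14 arrays, by group (horizontal axis); points are arrays with their replicate number, and the bar beside them is the group mean with its SD. PBEF+/- replicate 2 is the lowest point for Myh11, Tagln, Cnn1, Des, Actg2 and Smtn, and the 4 VALI values of Mylk lie below the 4 Control values.

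Acta2 encodes the smooth muscle isoform of alpha-actin (chromosome 19, positions 34240336 to 34255585 of GRCm38.p6). Its log2 value was 13.00, 13.29 and 12.92 in the VILI PBEF+/- arrays, 13.43, 12.82 and 12.87 in PBEF+/-, 13.29, 13.00, 12.73 and 13.37 in VALI, and 13.58, 13.49, 13.35 and 13.31 in Control. The Control arrays formed the highest and tightest group, with a mean of 13.43 ± 0.12 (SD, n = 4), while the means of the other groups lay between 13.04 and 13.10. VALI replicate 4 overlapped the Control range, as did PBEF+/- replicate 1. The log2 difference was -0.33 ± 0.16 (SE; adjusted p = 0.288) for VALI against Control and -0.39 ± 0.17 (adjusted p = 0.593) for PBEF+/- against Control. Without VALI replicate 4 and PBEF+/- replicate 3, all 3 remaining VALI arrays lay below all 4 Control arrays, with a difference of -0.42 ± 0.16 and an adjusted p of 0.097. Groups failed to overlap in that direction for 23.1% of all genes in that setting. The probe set carries the suffix _s_at, which marks probes that can match more than 1 transcript, and skeletal actin Acta1 is a close relative. Acta1 read 15.15 and 15.83 in VALI replicates 1 and 4, where Acta2 was the highest of its group. It read 9.40 and 8.85 in VALI replicates 2 and 3, and 8.63 to 11.90 in VILI PBEF+/-. In PBEF+/- replicate 3 it was 9.41, against 4.69 and 4.72 in PBEF+/- replicates 1 and 2 and 4.61 to 4.69 in Control. The part of cross-matching was not tested.

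Actg2, the enteric smooth muscle gamma-actin (chromosome 6, 83512909 to 83536251), read 9.04, 9.55 and 9.04 in VILI PBEF+/-, 9.19, 7.95 and 8.45 in PBEF+/-, 9.70, 9.003, 8.31 and 9.62 in VALI, and 9.34, 9.12, 9.17 and 8.71 in Control. The values of all 4 groups overlapped, and VALI spread over more than 1 log2 unit. The log2 difference was -0.55 ± 0.34 (adjusted p = 0.633) for PBEF+/- against Control and 0.68 ± 0.36 (adjusted p = 0.289) for VILI PBEF+/- against PBEF+/-. Without PBEF+/- replicate 2 these were -0.26 and 0.39. VALI differed from Control by 0.08 with all arrays and by -0.43 without VALI replicates 1 and 4, the 2 arrays rich in skeletal muscle transcripts.

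Myh11 encodes the myosin heavy chain of smooth muscle (chromosome 16, 14194527 to 14292188), the most specific marker among the 10. It read 11.21, 11.38 and 11.27 in VILI PBEF+/-, 11.60, 10.51 and 10.95 in PBEF+/-, 11.37, 11.05, 10.67 and 11.49 in VALI, and 11.87, 11.14, 10.99 and 11.05 in Control. The highest and the lowest value both came from unventilated groups, and every pair of groups overlapped. The differences were -0.12 ± 0.25 for VALI against Control (95% interval -0.66 to 0.42), -0.24 ± 0.27 for PBEF+/- against Control and 0.27 ± 0.29 for VILI PBEF+/- against PBEF+/-, with adjusted p-values of 0.819, 0.774 and 0.582. Without PBEF+/- replicate 2, the PBEF+/- difference from Control was 0.01.

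Tagln, or SM22, is an actin-binding protein used as a marker of contractile smooth muscle (chromosome 9, 45929628 to 45936058). Its values were 12.46, 12.63 and 12.52 in VILI PBEF+/-, 12.67, 11.71 and 12.42 in PBEF+/-, 12.57, 12.41, 12.22 and 12.39 in VALI, and 12.84, 12.52, 12.38 and 12.28 in Control. Apart from PBEF+/- replicate 2, the 14 arrays lay within 12.22 and 12.84. VALI and Control differed by -0.11 ± 0.18, with a 95% interval of -0.50 to 0.28 and an adjusted p of 0.768. PBEF+/- differed from Control by -0.24 with its replicate 2 and by 0.04 without it.

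Cnn1 encodes calponin 1, which binds actin and slows the myosin motor (chromosome 9, 22099221 to 22109221). It read 10.05, 10.45 and 10.10 in VILI PBEF+/-, 10.25, 8.96 and 9.33 in PBEF+/-, 10.18, 9.97, 9.50 and 10.05 in VALI, and 10.42, 10.39, 10.09 and 9.80 in Control. In PBEF+/-, replicates 2 and 3 lay below all other arrays of the study, whereas replicate 1 lay inside the VILI PBEF+/- and Control ranges and above all 4 VALI arrays. With all 14 arrays Cnn1 had the largest differences among the 10 genes in the interaction and in VILI PBEF+/- against PBEF+/-; without VALI replicate 4 and PBEF+/- replicate 3 Smtn had, with 1.05 in the interaction and 0.79 in that comparison, against 0.89 and 0.60 for Cnn1. It differed by -0.67 ± 0.27 between PBEF+/- and Control (adjusted p = 0.593) and by 0.69 ± 0.29 between VILI PBEF+/- and PBEF+/- (adjusted p = 0.215). The ventilation response under the PBEF+/- label minus that without it was 0.94 ± 0.38 (unadjusted p = 0.0288, adjusted p = 0.878). Without PBEF+/- replicate 2, the 3 values were -0.39, 0.41 and 0.66.

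Smtn encodes smoothelin, an actin-associated protein of contractile cells (chromosome 11, 3517522 to 3539292). It was 8.61, 8.71 and 8.80 in VILI PBEF+/-, 8.75, 7.08 and 8.65 in PBEF+/-, 8.59, 8.43, 8.18 and 8.94 in VALI, and 8.95, 8.54, 8.31 and 8.82 in Control. A single array, PBEF+/- replicate 2, set the PBEF+/- mean of 8.16 ± 0.94 (SD, n = 3). The difference between PBEF+/- and Control was -0.50 ± 0.34 with that array (adjusted p = 0.647) and 0.04 ± 0.21 without it. For VILI PBEF+/- against PBEF+/- it was 0.55 with the array and 0.00 without it.

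Lmod1 encodes leiomodin 1, which nucleates actin filaments in smooth muscle (chromosome 1, 135324813 to 135368065). It read 5.12, 5.23 and 5.70 in VILI PBEF+/-, 6.19, 5.18 and 4.89 in PBEF+/-, 5.97, 5.39, 5.07 and 6.68 in VALI, and 6.36, 6.29, 6.06 and 5.70 in Control. Control had the highest mean, 6.10 ± 0.30 (SD, n = 4), and the other groups averaged 5.35 to 5.78 with at least 1 array inside the Control range each. The log2 difference was -0.32 ± 0.35 for VALI against Control (adjusted p = 0.646) and -0.68 ± 0.38 for PBEF+/- against Control (adjusted p = 0.616). Leaving out VALI replicate 4 and PBEF+/- replicate 3, VALI differed from Control by -0.62 ± 0.29, with an adjusted p of 0.165.

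Cald1 encodes caldesmon, which inhibits the actomyosin motor and has smooth muscle and non-muscle isoforms (chromosome 6, 34598495 to 34775469). On the chosen probe set it was nearly flat: 13.40, 13.41 and 13.38 in VILI PBEF+/-, 13.44, 13.40 and 13.48 in PBEF+/-, 13.40, 13.41, 13.32 and 13.37 in VALI, and 13.46, 13.43, 13.41 and 13.43 in Control. Its 4 differences between groups lay between -0.06 and 0.03, with adjusted p-values of 0.521 to 0.979. The 95% interval of VALI against Control was -0.16 to 0.05. This probe set, 1424769_s_at, carries the same _s_at suffix as that of Acta2, and what else it may match was not examined.

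The promoters of Acta2 and Lmod1 are shown because each held more matches to the CArG box than any other member window, and both genes had their highest mean in Control. Windows of 250 bases before to 50 bases after the start, from RefSeq on GRCm38.p6, were found for 7 of the 10 genes and not for Myh11, Tagln or Actg2. The Acta2 window is chr19:34255324-34255623 on the minus strand and the Lmod1 window chr1:135324563-135324862 on the plus strand, with matches in capitals.
Acta2: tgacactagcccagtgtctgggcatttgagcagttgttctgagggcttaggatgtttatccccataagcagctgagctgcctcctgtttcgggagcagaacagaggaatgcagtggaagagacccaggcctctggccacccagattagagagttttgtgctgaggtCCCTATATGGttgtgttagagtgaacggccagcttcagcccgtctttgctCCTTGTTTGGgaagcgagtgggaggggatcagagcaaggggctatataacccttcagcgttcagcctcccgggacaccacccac
Lmod1: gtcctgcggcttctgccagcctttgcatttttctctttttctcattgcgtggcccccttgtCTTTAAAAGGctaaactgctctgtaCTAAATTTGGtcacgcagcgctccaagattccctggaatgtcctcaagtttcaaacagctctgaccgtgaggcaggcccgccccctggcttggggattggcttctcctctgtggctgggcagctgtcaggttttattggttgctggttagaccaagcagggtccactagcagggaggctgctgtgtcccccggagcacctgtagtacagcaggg
The CArG box is palindromic, so 1 search covers both strands, and at most 1 mismatch was allowed. The start used for the Acta2 window lies inside the gene span given above, not at its end. Counted from that start, the Acta2 matches were CCCTATATGG at -84 to -75 and CCTTGTTTGG at -34 to -25. Lmod1 held CTTTAAAAGG and CTAAATTTGG, and 1 of the 2 Cald1 windows held GCTTTTTAGG. Each of these matches had 1 mismatch, so none of the member windows held an exact CArG box. At least 1 match was present in 21.11% of all 32851 windows and at least 2 in 3.7%. Windows of Cnn1, Des, Mylk and Smtn held no match, which says only that these letters are absent from those stretches. The Mylk window (chr16:34784700-34784999) lies inside the gene, away from its 5′ end.

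Mylk, the kinase that starts contraction (chromosome 16, 34745199 to 35002436), separated VALI from Control on its chosen probe set. It read 13.00, 12.92, 12.93 and 13.00 in VALI and 13.30, 13.17, 13.15 and 13.12 in Control. All 4 VALI arrays lay below all 4 Control arrays, which was so for 5.98% of all genes, and in either direction for 10.7%. The mean was 12.96 ± 0.04 in VALI and 13.19 ± 0.08 in Control (SD, n = 4 each). The log2 difference was -0.22 ± 0.08 (95% interval -0.40 to -0.05), with an unadjusted p of 0.0159 and an adjusted p of 0.196.

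In the groups with the PBEF+/- label, Mylk read 12.80, 13.01 and 12.96 in VILI PBEF+/- and 13.32, 13.11 and 12.98 in PBEF+/-. PBEF+/- replicate 3, which had a high Il6 value, lay within the VILI PBEF+/- range, while the other PBEF+/- arrays lay above it. The difference was -0.21 ± 0.09 (adjusted p = 0.227) with all arrays. Without VALI replicate 4 and PBEF+/- replicate 3 it was -0.29 ± 0.09, with an adjusted p of 0.042. The PBEF+/- arrays then left were replicates 1 and 2, and replicate 2 had the high 18S signal. Mylk was then the only one of the 10 genes to pass in that comparison, in which 15.3% of all genes passed as lower and 26.4% in either direction. It was also the only member whose groups did not overlap there, as for 51% of all genes. Of the other Mylk probe sets, 1425505_at had the same sign there and 1425504_at the opposite one, and neither passed. In the same setting VALI differed from Control by -0.23 ± 0.08 with an adjusted p of 0.063, and 17% of all genes passed. PBEF+/- and Control differed by -0.05 ± 0.09, VILI PBEF+/- and VALI by -0.04 ± 0.09, and the interaction was 0.01 ± 0.12, with adjusted p-values of 0.855, 0.885 and 0.995.

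Des encodes desmin, the intermediate filament of muscle, which skeletal, heart and smooth muscle share (chromosome 1, 75360292 to 75368579). It read 10.68, 11.01 and 10.90 in VILI PBEF+/-, 11.00, 9.43 and 10.56 in PBEF+/-, 11.57, 10.62, 10.22 and 12.26 in VALI, and 11.12, 10.75, 10.72 and 10.24 in Control. VALI replicates 1 and 4 held the 2 highest values of the study and were also the arrays with the most skeletal muscle marker signal. VALI exceeded Control by 0.46 ± 0.41 with all arrays (adjusted p = 0.565) and differed from it by -0.29 ± 0.36 without those 2 arrays. The mean of the heart muscle markers was 12.15 and 12.72 in VALI replicates 1 and 4. It was also 12.72 in PBEF+/- replicate 1, where Des was 11.00. How much of the Des signal came from skeletal or heart muscle was not tested.

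Across the 14 arrays most of the 10 genes moved together. Control replicate 1 and PBEF+/- replicate 1 had all 10 genes above their own mean over the 14 arrays, by 0.40 and 0.26 log2 units on average. VALI replicate 3 had all 10 below, with an average deviation of -0.41, and PBEF+/- replicate 2 had 9 of 10 below, with an average of -0.71. Those are the 2 arrays with the high 18S signal. PBEF+/- replicate 2 also had the lowest Gapdh 3′ to 5′ difference (0.30), and PBEF+/- replicate 1 and Control replicate 1 had the highest (0.80 and 0.79). Over the 14 arrays, the correlation of a gene with the 18S signal ran from -0.84 for Smtn to -0.23 for Mylk. A fit with the 18S signal as a covariate is given below. The part of either measure in the gene values was not tested further. PBEF+/- replicate 3 had 8 of 10 below, with an average of -0.27, at an 18S signal of 3.23.

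The correlation of a gene with the mean deviation of the other 9, over 14 arrays, was 0.70 for Lmod1 and 0.75 to 0.90 for Smtn, Des, Acta2, Tagln, Cnn1, Actg2 and Myh11. It was 0.31 for Mylk and 0.23 for Cald1. Taken within groups, it was 0.65 for Mylk and 0.50 for Cald1, and 0.72 to 0.93 for the other members. Over the 12 arrays left without PBEF+/- replicate 2 and VALI replicate 3, the correlation across groups was 0.81 for Myh11, 0.76 for Actg2 and 0.73 for Lmod1. It was 0.74 for Acta2, and it was lower for Cnn1 (0.66), Des (0.62) and Tagln (0.56). For Mylk it was then 0.49, for Smtn 0.41 and for Cald1 -0.29. These coefficients are descriptions of arrays that share a scaling, and they carry no test.

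**Figure D2:**
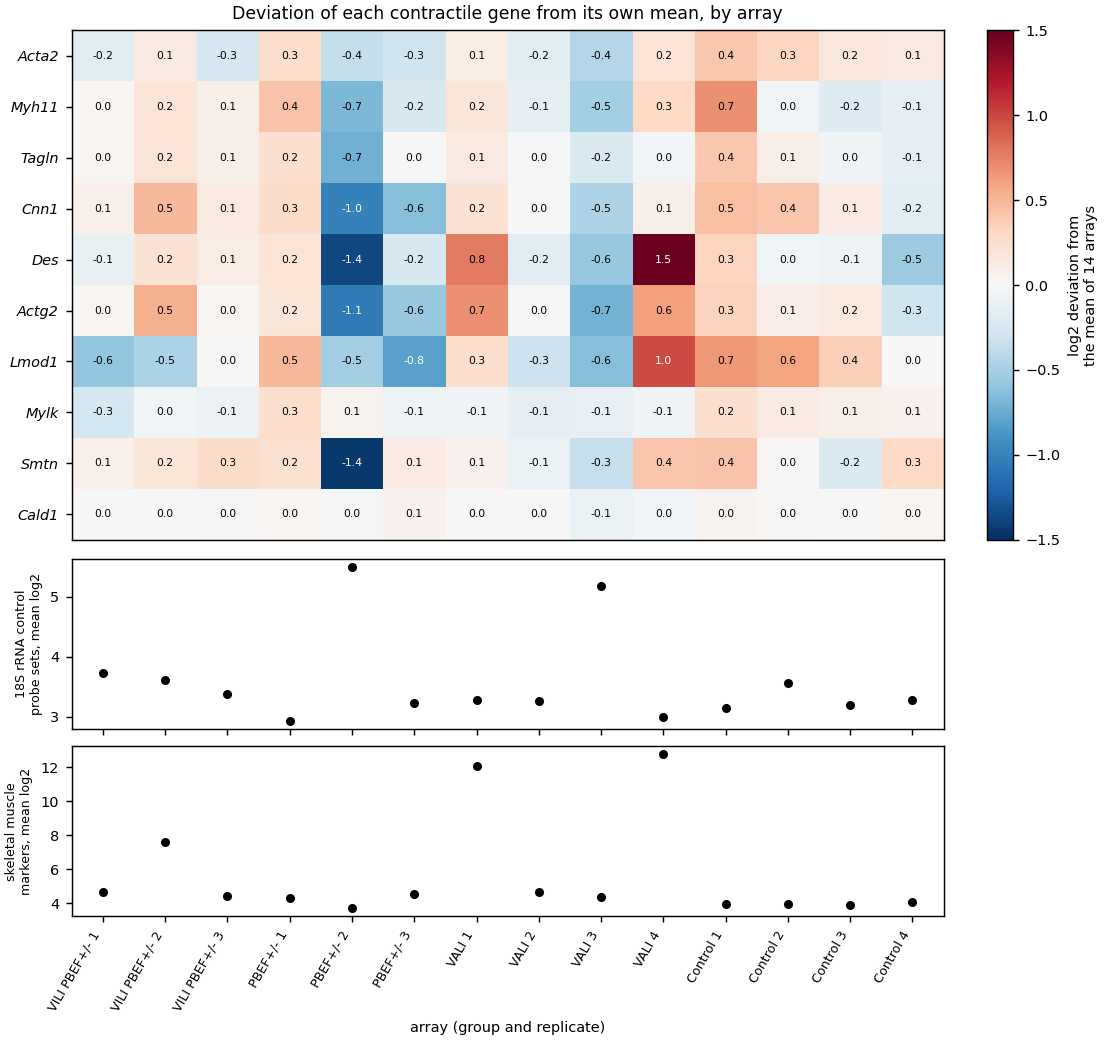
Deviation of each contractile gene from its own mean over 14 arrays (top, log2 units, by gene and array), with the mean log2 value of the 18S control probe sets (middle) and of 7 skeletal muscle markers (bottom) in the same arrays. PBEF+/- replicate 2 and VALI replicate 3 have the 2 highest 18S values and the lowest contractile gene values on average, and Des stands out in VALI replicates 1 and 4.

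Taken as a list, 8 of the 10 genes had a value below 0 in VALI against Control, with a median log2 difference of -0.12, beside a median of -0.06 over all 11360 genes and 58.5% of them below 0. With VALI replicate 4 and PBEF+/- replicate 3 left out, 9 of 10 were below 0 and the median was -0.24, beside -0.08 over all genes. Acta2 and Mylk were the 2 members whose groups did not overlap in that setting, where this held for 35.5% of all genes. Without VALI replicates 1 and 4, all 10 were below 0, with a median of -0.38, beside -0.07 over all genes. Of the 2 VALI arrays then left, 1 is replicate 3, which had the high 18S signal and all 10 genes below their mean. No member was called in any of these settings. Of all genes, 0% were called with all arrays and 17% without VALI replicate 4 and PBEF+/- replicate 3. Without VALI replicates 1 and 4 the count was 0 of 11360.

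In PBEF+/- against Control, 9 of the 10 values were below 0, from -0.68 for Lmod1 to -0.05 for Mylk, with a median of -0.38, beside -0.09 over all genes. Lmod1 was the member read closest to the array medians. No member separated the groups, while 5.84% of all genes did. The same was so without VALI replicate 4 and PBEF+/- replicate 3, where 13% of all genes did. With PBEF+/- replicate 2 left out, 5 of 10 values were below 0 and the median was -0.01, beside -0.07 over all genes. Those below 0 were Lmod1 (-0.56), Cnn1 (-0.39), Acta2 (-0.28), Actg2 (-0.26) and Mylk (-0.04). Des, Smtn, Tagln and Myh11 turned to values of 0.01 to 0.07. With the 18S signal as a covariate the median was -0.15, and Cnn1 had -0.48 ± 0.22.

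In VILI PBEF+/- against PBEF+/-, 7 of 10 values were above 0, from 0.03 for Acta2 to 0.69 for Cnn1, with a median of 0.27, beside -0.05 over all genes. No member separated these groups with all arrays, compared with 19.3% of all genes. Without PBEF+/- replicate 2, the median was 0.00 and 5 of 10 values were above 0.

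In VILI PBEF+/- against VALI the differences ran from -0.43 for Lmod1, again the member closest to the array medians, to 0.27 for Cnn1. Their median was 0.04, beside -0.08 over all genes. Here too no member separated the groups, while 14.9% of all genes did. Without VALI replicate 4 and PBEF+/- replicate 3, Smtn was higher in all 3 VILI PBEF+/- arrays than in the 3 VALI arrays left, by 0.31 ± 0.33 with an adjusted p of 0.909. It was the only member to separate those groups, while 17.9% of all genes did. The interaction was above 0 for all 10 genes with a median of 0.37, beside 0.02 over all genes. That median was 0.13 without PBEF+/- replicate 2, and 2 of the 10 values were then below 0.

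**Figure D3:**
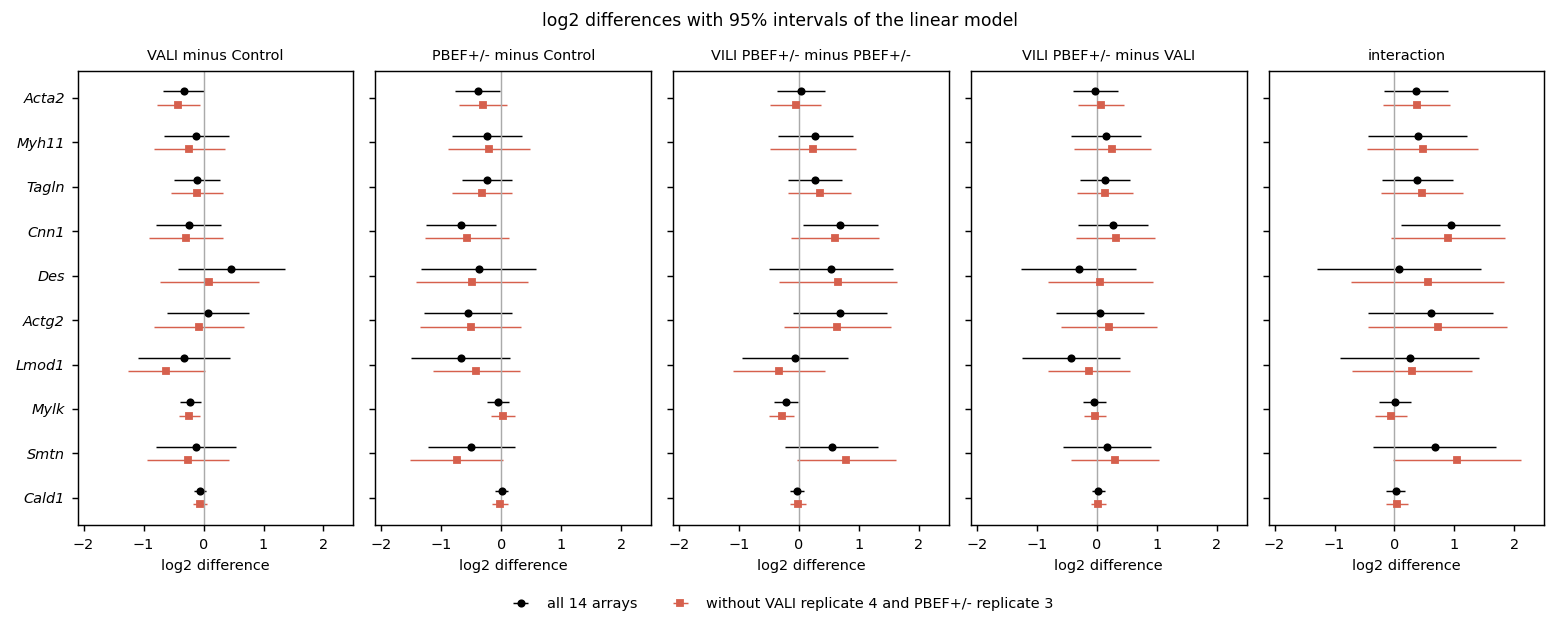
log2 difference (horizontal axis) of the 10 contractile genes (vertical axis) in the 4 comparisons and the interaction, with 95% intervals of the linear model; circles use all 14 arrays and squares leave out VALI replicate 4 and PBEF+/- replicate 3. Most intervals cover 0, and Mylk has narrow intervals below 0 in both comparisons of a ventilated group with its unventilated counterpart.

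The other probe sets of a member did not always follow the chosen one. Of the 20 probe sets, 15 passed the filter, and the extra ones belonged to Mylk and Cald1. When the model was fitted to all 23168 probe sets that passed, 0% were called in VALI against Control and 0.00863% in VILI PBEF+/- against PBEF+/- with all 14 arrays.

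The Mylk probe set 1425505_at, like the chosen 1425506_at, was lower in VALI: it read 10.44, 10.35, 10.24 and 10.61 in VALI and 10.98, 10.82, 10.50 and 11.02 in Control. VALI replicate 4 overlapped Control, and the difference was -0.42 ± 0.25 (adjusted p = 0.415). A further Mylk probe set, 1425504_at, read 8.15, 8.07, 7.62 and 8.53 in VALI and 8.96, 8.39, 8.60 and 7.81 in Control, with overlapping ranges and a difference of -0.35 ± 0.43 (adjusted p = 0.714). In VILI PBEF+/- against PBEF+/-, the comparison in which 1425506_at passed without VALI replicate 4 and PBEF+/- replicate 3, the probe sets differed in sign. Probe set 1425505_at differed by -0.46 ± 0.29 with all arrays and by -0.74 ± 0.29 without those 2 (adjusted p = 0.0924). Probe set 1425504_at differed by 0.35 ± 0.49 with all arrays and by 0.62 ± 0.55 without them (adjusted p = 0.444). In PBEF+/- replicate 2 these 2 probe sets went apart. There 1425505_at was at 11.80, the highest of its 14 values, and 1425504_at at 6.35, the lowest of its own. Which Mylk transcripts each probe set detects was not examined.

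For Cald1, probe set 1433147_at behaved unlike the chosen one. It read 7.90, 7.97 and 7.96 in VILI PBEF+/-, 6.51, 4.91 and 8.06 in PBEF+/-, 7.14, 7.09, 7.23 and 6.46 in VALI, and 7.48, 6.75, 6.34 and 6.25 in Control. The VILI PBEF+/- arrays formed a tight group above all VALI and Control arrays, and PBEF+/- replicate 3, the one with high Il6, lay with them. The difference between VILI PBEF+/- and PBEF+/- was 1.44 ± 0.58 with all arrays (adjusted p = 0.231). Without VALI replicate 4 and PBEF+/- replicate 3 it was 2.23 ± 0.43 with an adjusted p of 0.00586, in a fit that called 19.7% of all probe sets. VILI PBEF+/- exceeded VALI by 0.96 ± 0.54 (adjusted p = 0.608), with groups that did not overlap, as for 13.9% of probe sets. The Cald1 probe sets 1424768_at and 1424770_at differed by -0.09 ± 0.13 and -0.11 ± 0.22 between VILI PBEF+/- and PBEF+/-. In VALI against Control they differed by -0.16 ± 0.11 and -0.35 ± 0.19 (adjusted p = 0.495 and 0.354). There 1433147_at had the opposite sign, 0.28 ± 0.50 (adjusted p = 0.816). In VILI PBEF+/- against VALI, 1424768_at and 1424770_at differed by 0.19 ± 0.12 and 0.33 ± 0.20.

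**Figure D4:**
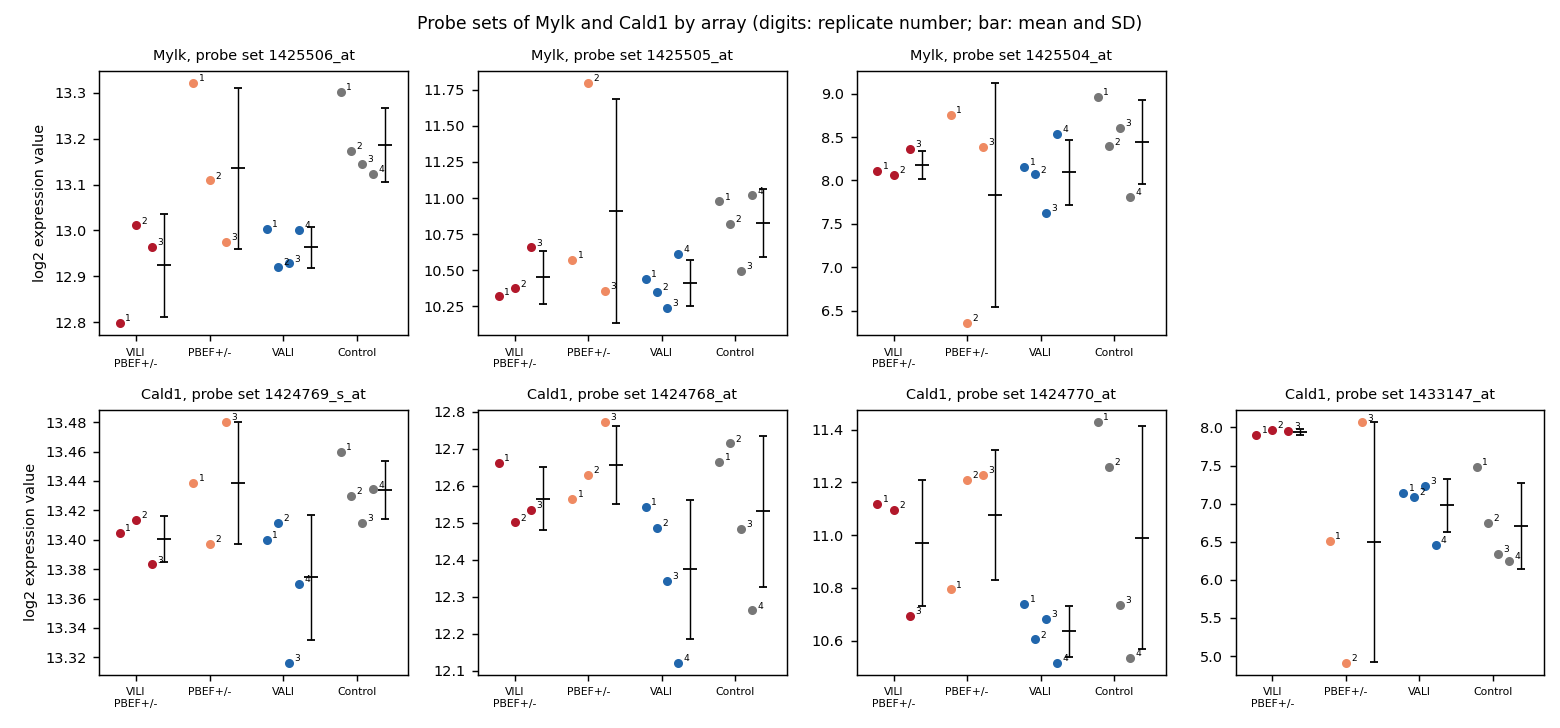
log2 expression value (vertical axis, separate ranges) of 3 Mylk and 4 Cald1 probe sets in the 14 arrays, by group (horizontal axis); points are arrays with their replicate number, and the bar is the group mean with its SD. Cald1 probe set 1433147_at is high and tight in VILI PBEF+/-, and the Mylk probe sets 1425504_at and 1425505_at lie at opposite ends in PBEF+/- replicate 2.

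Genes that regulate the contractile genes or work with their products were read as separate lists. With all 14 arrays none of the listed genes passed in any comparison, as for the whole array. The calls that follow, and the lists' counts, are from the fit without VALI replicate 4 and PBEF+/- replicate 3, so they are conditional on that choice, and the lists were chosen with results of these data known. In that fit 17% of all genes passed in VALI against Control and 26.4% in VILI PBEF+/- against PBEF+/-. PBEF+/- then held only replicates 1 and 2, and replicate 2 had the high 18S signal.

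Of 11 transcription factors and cofactors of smooth muscle genes, 2 fell in VALI against Control and none rose, a share near the 17% of all genes. Klf4, a repressor of contractile genes in smooth muscle, fell by 0.94 ± 0.15 on the log2 scale (adjusted p = 0.00195) and Gata6, a transcription factor, fell by 0.48 ± 0.11 (adjusted p = 0.0157). Klf4 read 12.89, 13.10, 12.51 and 13.54 in VALI and 13.93, 13.71, 13.84 and 13.64 in Control. Those groups did not overlap even with VALI replicate 4, the highest VALI array. Srf rose in VILI PBEF+/- against PBEF+/- by 1.09 ± 0.24 (adjusted p = 0.00737), while Mef2c (-1.16 ± 0.30) and Klf4 (-0.72 ± 0.18) fell, 3 of 11 beside 26.4% of all genes. Srf read 10.43, 10.39 and 10.01 in VILI PBEF+/- and 9.48, 8.89 and 10.10 in PBEF+/-. PBEF+/- replicate 3 lay inside the VILI PBEF+/- range and the other PBEF+/- arrays below it.

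The early targets of SRF outside muscle, which respond to stimulation within minutes, stood well above 0. Of 6 genes, 5 rose in VALI against Control and all 6 in VILI PBEF+/- against PBEF+/-, beside 17% and 26.4% of all genes called in the same fit. The median log2 differences were 1.78 and 2.58, beside -0.08 and -0.07 over all genes. Fos, an AP-1 subunit, read 14.42, 14.27 and 14.29 in VILI PBEF+/-, 12.37, 12.09 and 14.15 in PBEF+/-, 12.96, 13.19, 13.20 and 13.17 in VALI, and 11.73, 12.28, 12.14 and 11.48 in Control. Each ventilated group lay above Control in full, and PBEF+/- replicate 3 lay just below the VILI PBEF+/- arrays. Fosb, another AP-1 subunit, rose by 5.23 ± 0.63 in VILI PBEF+/- against PBEF+/- (adjusted p = 0.000294) and by 1.75 ± 0.53 in VALI against Control (adjusted p = 0.0434). It also exceeded VALI in VILI PBEF+/-, by 4.35 ± 0.57 (adjusted p = 0.0396), as did Fos by 1.21 ± 0.18 (adjusted p = 0.0396), in a comparison where 0.114% of all genes passed. The 10 contractile genes had medians of -0.24 and 0.29 in the first 2 of these comparisons, and the difference between the lists was not tested.

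Among 12 tested partners of the contractile filaments, Synm, an intermediate filament protein that pairs with desmin, fell in both. Its log2 difference was -1.21 ± 0.26 in VALI against Control (adjusted p = 0.00961) and -1.49 ± 0.31 in VILI PBEF+/- against PBEF+/- (adjusted p = 0.00573). Synm read 9.48, 8.99 and 9.93 in VILI PBEF+/-, 10.68, 11.23 and 9.29 in PBEF+/-, 9.73, 9.26, 9.50 and 10.77 in VALI, and 11.25, 10.75, 10.43 and 10.40 in Control. The 2 arrays with unusual Il6 lay on the far side of their groups, VALI replicate 4 within Control and PBEF+/- replicate 3 within VILI PBEF+/-. Pdlim7 (1.70 ± 0.33) and Csrp1 (0.35 ± 0.09), both LIM domain proteins of the actin cytoskeleton, rose in VILI PBEF+/- against PBEF+/-. The remaining partners, among them Myl9, Tpm1, Tpm2, Flna and Vcl, did not pass in either. The calls were 1 of 12 in VALI against Control and 3 of 12 in VILI PBEF+/- against PBEF+/-, which did not exceed the shares of all genes (17% and 26.4%).

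Of 10 tested regulators of myosin phosphorylation and tone, Cacna1c, the pore subunit of the L-type calcium channel, fell in VALI against Control by -0.99 ± 0.22 (adjusted p = 0.011). Its values were 6.95, 7.17, 7.34 and 7.59 in VALI and 8.37, 8.16, 7.83 and 8.22 in Control. The groups did not overlap with all 4 VALI arrays, and the adjusted p was then 0.0958. Ppp1r14a, an inhibitor of myosin phosphatase, fell in VILI PBEF+/- against PBEF+/- by 0.89 ± 0.20 on the log2 scale (adjusted p = 0.00818). Pde5a, which breaks down cyclic GMP, fell by 1.18 ± 0.27 (adjusted p = 0.00973). These were 1 of 10 and 2 of 10 calls, below the 17% and 26.4% of all genes.

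Of 12 tested relatives of the members that are not restricted to smooth muscle, Tmod1 rose in VALI against Control by 0.40 ± 0.10 (adjusted p = 0.0178). Non-muscle myosin heavy chains went opposite ways in VILI PBEF+/- against PBEF+/-: Myh9 rose by 1.13 ± 0.32 (adjusted p = 0.0254) and Myh10 fell by 0.65 ± 0.17 (adjusted p = 0.02). Myh9 read 14.01, 14.10 and 13.80 in VILI PBEF+/- and 13.64, 12.04 and 13.84 in PBEF+/-, where replicate 2 was again the lowest array. With 1 of 12 and 2 of 12 called, these relatives also lay below the 17% and 26.4% of all genes.

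**Figure D5:**
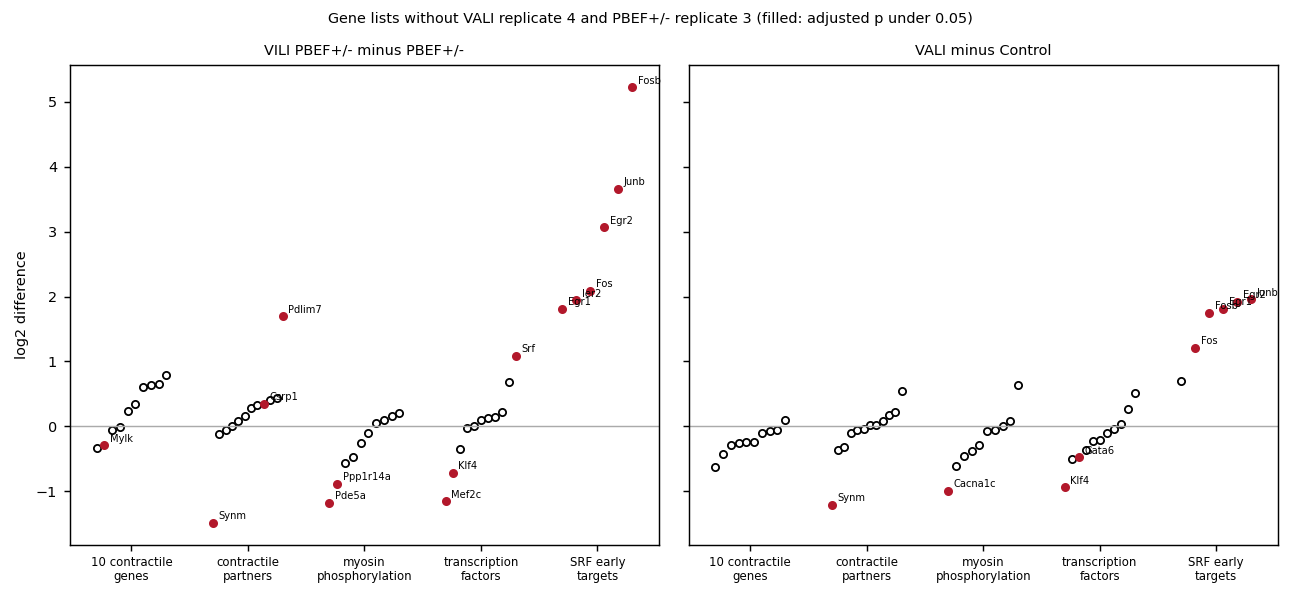
log2 difference (vertical axis) of each tested gene in 5 lists (horizontal axis) for VILI PBEF+/- minus PBEF+/- (left) and VALI minus Control (right), without VALI replicate 4 and PBEF+/- replicate 3; filled points passed an adjusted p of 0.05 and are named. The contractile genes run from -0.34 for Lmod1 to 0.79 for Smtn (left) and from -0.62 for Lmod1 to 0.10 for Des (right). Lmod1 is the member read closest to the array medians. Mylk (left) is the only filled point of the contractile genes, and the SRF early targets reach 5.23 for Fosb.

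Markers of other mesenchymal cells were read beside these results. In the same fit, 1 of 6 pericyte markers rose in VALI against Control (Kcnj8, 0.76 ± 0.24, adjusted p = 0.049) and 1 of 6 fibroblast markers fell (Tcf21, -0.77 ± 0.21, adjusted p = 0.0263), each near the 17% of all genes. Of 4 mesothelial markers none passed, and all 4 were below 0, with a median of -0.51. The mean log2 value of the pericyte markers ranged from 9.80 to 9.98 in VILI PBEF+/-, 9.52 to 10.02 in PBEF+/-, 9.57 to 10.23 in VALI and 9.74 to 9.94 in Control. That of the fibroblast markers was lowest in PBEF+/- replicate 2 (11.00) and VALI replicate 3 (11.25), as for the contractile genes. The part of these cells in the contractile gene values was not tested.

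The 5 genes whose values were most like the mean deviation of the 10 contractile genes, among 11350 other genes over 14 arrays, were Dmpk (r = 0.94), Baz2a (0.89), Ppp2r5d (0.89), Sdhc (0.89) and Fxyd3 (0.88). Dmpk encodes the myotonic dystrophy protein kinase, which is expressed in muscle, and Sdhc a subunit of succinate dehydrogenase. Without the 2 arrays with high 18S signal, over 12 arrays, the coefficients were 0.84, 0.79, 0.83, 0.72 and 0.78 in that order.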

How the data were processed

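Per the submitters' processing notes, MAS5 and GCRMA were used, with neither version nor role given. The deposited values are log2 expression values by their range, 1 per probe set and array, and they were used with no further scaling. Array medians lay between 4.60 and 4.75. Probe sets were named from the platform annotation: 34958 carried 1 symbol, 932 carried several and 9211 were unnamed. Gene positions and promoters came from RefSeq tables of GRCm38.p6, matched by identifier and symbol. The 10 genes and the other lists were chosen with earlier results of these data known.

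The filter kept genes whose probe set was above the median of the array in 3 or more of 14 arrays, which left 11360. A linear model with the 4 title groups was fitted in limma 3.58.1 (R 4.3.3) with a variance trend and Benjamini-Hochberg adjustment over these genes. Each ± after a log2 difference is a standard error. The fit was tested on simulated data. The number of arrays limits the precision. Named genes are the 10 members, list members called in a comparison or else at most 3 per list with the smallest p, and the 5 genes most like the members. The per-array values of some of these, and the genes listed as not passing, were chosen for display after the values were seen. Replicate numbers did not pair the arrays across groups: correlations of same-numbered deviations ran from -0.35 to 0.25.

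The alternatives were other filters, scalings and probe set summaries, each array left out in turn, a sex pattern as a covariate, and a replicate block. Chosen after seeing the data were the fit without VALI replicates 1 and 4, the 18S signal as a covariate, the fit to every probe set, and Eif2s3y in place of Ddx3y beside Xist in that pattern, since no probe set was annotated to Ddx3y alone. Figures were drawn with matplotlib 3.10.9.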

Additional observations from a re-analysis of the deposited data

How the results depend on the processing

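With all 14 arrays, 0 of the 10 contractile genes were called in each of the 5 tests, and the count stayed at 0 under the other filters, scalings, probe set summaries, covariates and the replicate block. The exception was VILI PBEF+/- against PBEF+/-, where 1 gene, Mylk, was called without VALI replicate 4 and PBEF+/- replicate 3. Leaving out each array in turn gave 0 to 1 there, with the 1 call coming without PBEF+/- replicate 3. With the replicate block, which the numbers did not justify, Mylk differed by -0.21 in that comparison and 0 genes were called. Fits with only the 2 groups of a comparison were run for the 4 comparisons and not for the interaction, which needs all 4. The planned fits changed no other call. Over all genes, 0 were called with all arrays in VALI against Control, against 27 with only its 2 groups in the fit, 680 without VALI replicate 4, 288 without PBEF+/- replicate 3 and 1933 without both. In VILI PBEF+/- against PBEF+/- the count of 0 became 2157 without PBEF+/- replicate 3 and 3003 without both. Some log2 differences changed sign in the settings that follow, among them ones not near 0: with all arrays Des had 0.46 in VALI against Control and Lmod1 had -0.43 in VILI PBEF+/- against VALI. None of the differences that changed sign was called on either side, and the cause was not tested. Under quantile normalization these were -0.0061 for Cald1 in PBEF+/- against Control, -0.020 for Acta2 in VILI PBEF+/- against PBEF+/-, -0.00054 for Cald1 in VILI PBEF+/- against VALI and -0.00098 for Des and -0.0069 for Mylk in the interaction. With each array centred on its median these were -0.024 for Cald1 in PBEF+/- against Control, 0.0044 for Cald1 in VILI PBEF+/- against PBEF+/- and 0.011 for Acta2 in VILI PBEF+/- against VALI. With the mean of all probe sets of a gene these were 0.25 for Cald1 in VILI PBEF+/- against PBEF+/- and 0.15 for Acta2 and 0.029 for Mylk in VILI PBEF+/- against VALI. With VALI replicate 4 and PBEF+/- replicate 3 left out these were -0.079 for Actg2 in VALI against Control, -0.016 for Cald1 and 0.030 for Mylk in PBEF+/- against Control, -0.055 for Acta2 in VILI PBEF+/- against PBEF+/-, 0.063 for Acta2 and 0.060 for Des in VILI PBEF+/- against VALI and -0.056 for Mylk in the interaction. Without VALI replicates 1 and 4 these were -0.43 for Actg2 and -0.29 for Des in VALI against Control and 0.20 for Acta2, 0.44 for Des and 0.12 for Lmod1 in VILI PBEF+/- against VALI. With the 18S signal as a covariate these were 0.0077 for Myh11 and 0.063 for Smtn in VALI against Control, -0.028 for Acta2 in VILI PBEF+/- against PBEF+/- and -0.35 for Des and -0.011 for Mylk in the interaction. With each array left out in turn, some ranges crossed 0. In VALI against Control the ranges were -0.10 to 0.36 for Actg2, -0.24 to 0.081 for Myh11 and -0.18 to 0.00096 for Tagln. In PBEF+/- against Control the ranges were -0.016 to 0.025 for Cald1, -0.72 to 0.071 for Des, -0.54 to 0.012 for Myh11, -0.14 to 0.030 for Mylk, -0.80 to 0.042 for Smtn and -0.44 to 0.041 for Tagln. In VILI PBEF+/- against PBEF+/- the ranges were -0.082 to 0.23 for Acta2, -0.34 to 0.31 for Lmod1 and -0.010 to 0.47 for Tagln. In VILI PBEF+/- against VALI the ranges were -0.15 to 0.063 for Acta2, -0.23 to 0.23 for Actg2, -0.62 to 0.060 for Des, -0.011 to 0.26 for Myh11 and -0.083 to 0.024 for Mylk. In the interaction the ranges were -0.38 to 0.44 for Des, -0.014 to 0.64 for Lmod1 and -0.069 to 0.10 for Mylk. Limits: the number of arrays sets the precision, VILI PBEF+/- mice were younger than the others, and the arrays that stood apart were identified from their own values.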
